A study of Rattus norvegicus with 8 samples.

Results

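The AMPA and kainate receptor subunits are the products of 9 genes, Gria1, Gria2, Gria3 and Gria4 for the AMPA receptors and Grik1, Grik2, Grik3, Grik4 and Grik5 for the kainate receptors. Every probe set whose symbol in the platform's annotation table was one of these 9 was taken, whatever its values. That gave 16 of the 8740 probe sets that were not array controls, 10 for the AMPA subunits and 6 for the kainate subunits. All 9 genes had at least 1 probe set bright enough to test, and 15 of the 16 probe sets were tested among 7770 in all.

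Both families are ion channels that open when glutamate binds and let cations into the neuron. AMPA receptors, built from subunits of the Gria family, carry most of the fast excitatory current in the brain, and volatile anaesthetics such as isoflurane are known to depress excitatory transmission. Kainate receptors, built from subunits of the Grik family, act on both sides of the synapse, where they tune transmitter release and excitability.

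RNA of whole rat brain was hybridised to 8 short-oligonucleotide arrays, 1 array per sample, and every rat was intubated. The control group held 3 arrays from rats that breathed isoflurane for 3 min and whose labels mention cold saline perfusion at once. The exposed groups breathed 2% isoflurane for 1 hr (2 arrays) or for 2 hr (3 arrays), with brain collection not given in the sources used here. Controls therefore had a brief exposure themselves, and no rat without anaesthetic was analysed here. The labels state neither strain nor age, and for controls no isoflurane concentration. The comparisons ask whether the receptor transcripts differed after the longer exposures, and both exposed groups were set against the same 3 control arrays. Because the labels carry no animal numbers, p-values here reflect how far these samples spread, which may be partly technical.

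Values are the intensities as deposited, on a linear scale. A log2 change is a difference of group means after values below a floor of 9.1, the 20th percentile of all values, were raised to it, and a probe set was tested when at least 2 of the 8 arrays lay above the floor. Tests were made with limma over all 7770 probe sets, with adjustment over all of them. Pairs of arrays correlated at 0.876 to 0.970. The highest intensity of an array lay at 23009.4 to 37711.8 on control replicate 3, 1 hr replicate 1 and 2 hr replicate 3, and at 3504.2 to 12444.6 on the remaining 5. The 5S ribosomal RNA control feature lay at 12.9 to 23.7 on control replicates 1 and 2 and 2 hr replicate 1, against 70.4 to 141.7 elsewhere. Of the brain markers, 9 of 12 neuron, 7 of 8 astrocyte and 6 of 7 oligodendrocyte genes had a probe set on the array. Each of these genes had at least 1 probe set bright enough to test. The same held for the 5 of 5 markers from outside the brain, so reading above the floor does not by itself single out brain tissue. Their summed intensities were 656 to 844.1 in controls, 763.2 to 927.8 at 1 hr and 758 to 975.8 at 2 hr. Summed intensities of the neuron markers were 8333 to 13880.8 in controls, 10698.2 to 10859.2 at 1 hr and 8492.3 to 12779 at 2 hr, so their ranges overlapped. In whole brain tissue, fewer cells of a type and less RNA per cell cannot be told apart. Apart from picking the brightest probe set of a gene, intensities of different probe sets were not set against each other. Each probe set has its own response, so abundance is compared between groups within a probe set.

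No AMPA or kainate receptor probe set passed the test in any comparison. At 2 hr the adjusted limma p was 1 for each of the 15, and 0 of 15 had an unadjusted p under 0.05, where the share over all 7770 probe sets was 1.79% unadjusted and 0% adjusted. At 1 hr the adjusted p was again 1 for each and 0 of 15 had an unadjusted p under 0.05, against 2.68% of all probe sets unadjusted and 0% adjusted. Of the 15, 7 read higher and 8 lower at 2 hr than in controls, with a median log2 change of -0.01 beside 0.02 over all probe sets, of which 52.3% read higher and 47.7% lower. That split moved with the setting: it was 11 higher and 4 lower without 2 hr replicate 2 (median 0.20) and likewise with the 5S reading as a block (median 0.30), and 10 higher and 4 lower without control replicate 2 (median 0.22). At 1 hr 8 read higher and 7 lower, with a median of 0.12 beside 0.05 over all, of which 55.8% read higher and 44.2% lower. Single arrays moved the 1 hr split as well, to 6 higher and 9 lower without 1 hr replicate 2 and to 10 higher and 4 lower without control replicate 2. With both exposures averaged, and likewise for 2 hr against 1 hr, 0 of 15 had an unadjusted p under 0.05, against 2.21% and 2.77% of all probe sets. The median size of the change without its sign was 0.39 at 2 hr and 0.34 at 1 hr for the subunits, against 0.23 and 0.28 over all probe sets. Their spread within groups was larger as well, with a median SD of 0.576 against 0.511 on the log2 scale. The part of that spread in the size of the changes was not tested.

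**Figure D1:**
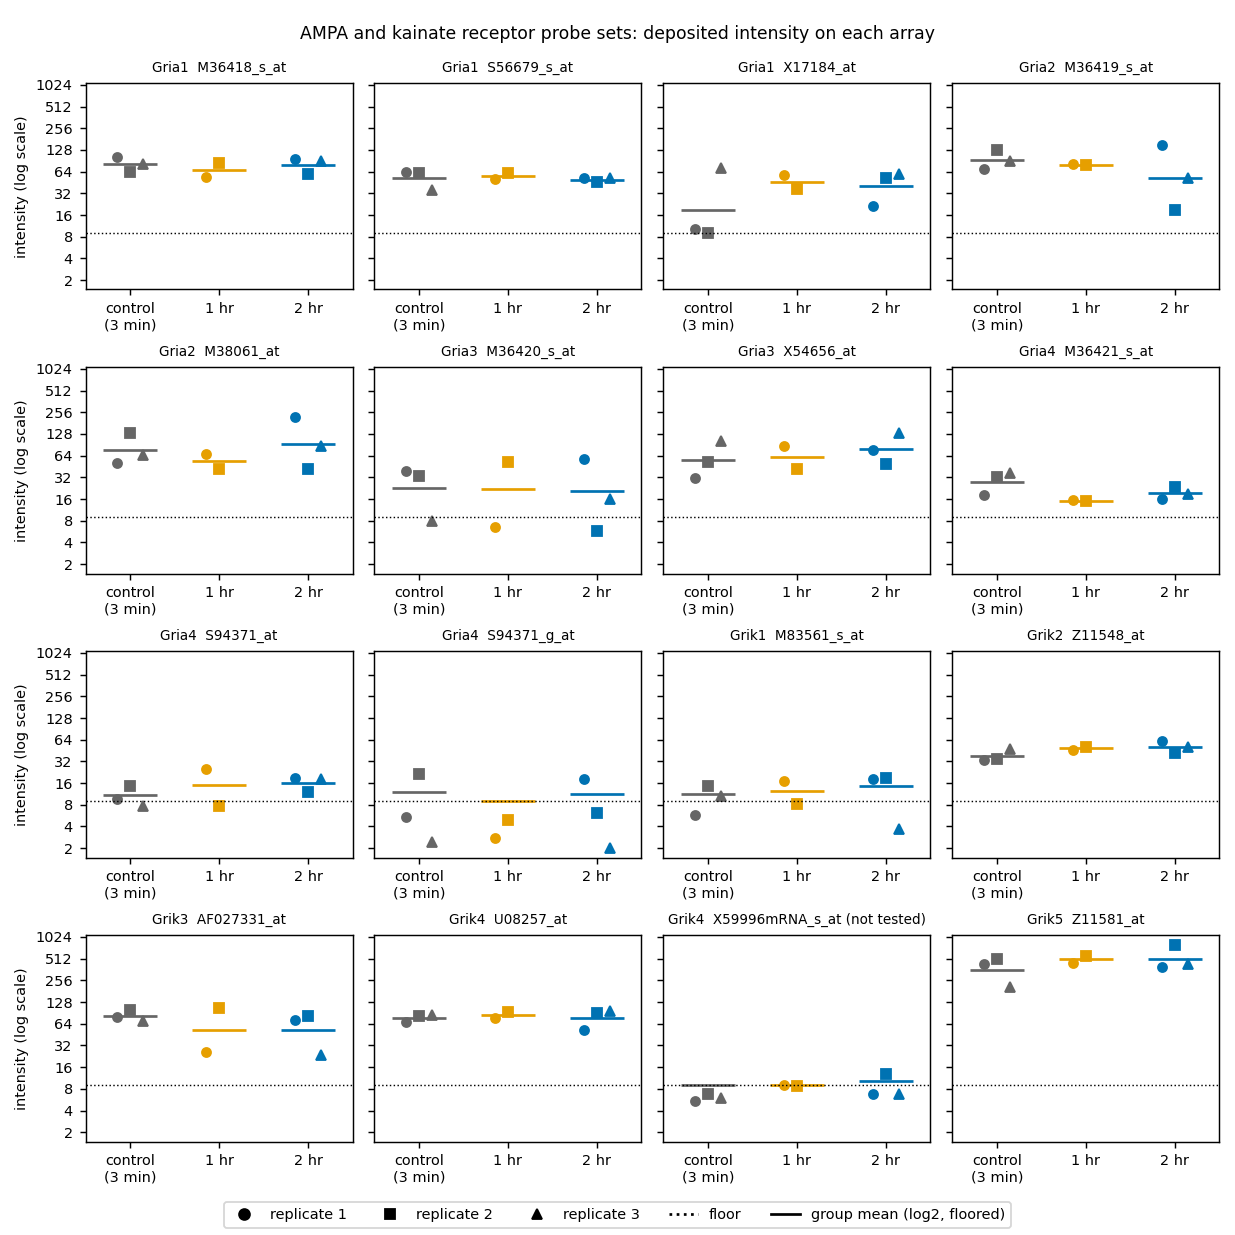
Deposited intensity of each AMPA and kainate receptor probe set on each of the 8 arrays, on a log axis, by group (control, 1 hr, 2 hr), with the group means as bars and the floor of 9.1 marked. Both 1 hr arrays of Gria4 probe set M36421_s_at, at 14.9 and 15.4, lie under its 3 control arrays, at 18.4 to 37, while most other panels show overlapping groups.

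Among the AMPA subunits, Gria1 encodes GluA1, the subunit whose delivery to hippocampal synapses accompanies long-term potentiation. Its brightest probe set, M36418_s_at, read 103.2, 63.7 and 80.6 in controls, 54.6 and 83.5 at 1 hr and 95.5, 58.7 and 89.3 at 2 hr. The 3 groups covered much the same range. Group means on the log2 scale were 6.34 ± 0.35 in controls, 6.08 ± 0.43 at 1 hr and 6.31 ± 0.38 at 2 hr (SD, n = 3, 2 and 3 arrays). The changes on that scale were -0.26 (95% interval -1.17 to 0.65) at 1 hr and -0.03 (-0.84 to 0.79) at 2 hr.

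The other Gria1 probe sets did not share one pattern. S56679_s_at read 62.4, 60.3 and 36.1 in controls, 50.5 and 61.6 at 1 hr and 51.5, 46.1 and 51.7 at 2 hr, so both exposed groups lay inside the control range. X17184_at read 10.1, 9.1 and 70.9 in controls, 57.8 and 36.8 at 1 hr and 21.2, 52.3 and 58.5 at 2 hr. Control replicate 3 was the highest of all 8 arrays there, while the other 2 control arrays were the lowest, and 1 of them sat at the floor. The log2 change of X17184_at was 1.30 (SE 0.882) at 1 hr and 1.11 (SE 0.789) at 2 hr, the largest estimates among the 15 probe sets in both comparisons. Without control replicate 3 these 2 values were 2.27 and 2.07, and among the 3 arrays with the highest top intensity, 1 per group, they were -0.29 and -0.28.

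Gria2 encodes GluA2, whose edited pore residue keeps calcium from passing through the receptors that hold it. Probe set M38061_at read 50.2, 132.6 and 65.3 in controls, 67 and 42.3 at 1 hr and 218.2, 42.1 and 87.1 at 2 hr. The 2 hr group held both the highest and the lowest of the 8 values. Its log2 change was -0.51 (95% interval -2.03 to 1.01) at 1 hr and 0.29 (-1.07 to 1.65) at 2 hr, and the 2 hr value was -0.32 without 2 hr replicate 1. Set against 1 hr, the 2 hr mean was 0.80 higher on the log2 scale (SE 0.679, limma, adjusted p = 1).

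The second Gria2 probe set, M36419_s_at, read 70.3, 125.8 and 90.2 in controls, 81.2 and 78.5 at 1 hr and 149, 18.9 and 51.9 at 2 hr. Again 2 hr replicate 1 was the highest array and 2 hr replicate 2 the lowest. For this probe set the log2 change was -0.22 (95% interval -1.84 to 1.41) at 1 hr and -0.82 (-2.27 to 0.63) at 2 hr, the lowest estimate of the 15 at 2 hr. Without 2 hr replicate 2 the 2 hr value shrank to -0.08. Over the 8 arrays the 2 Gria2 probe sets correlated (Pearson r = 0.68), but they lay on the same side of their own means on only 4 of 8. Both stood above their means on 2 hr replicate 1 and below them on 2 hr replicate 2. The sign of their 2 hr change differed.

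Gria3 encodes GluA3, a subunit found mostly in receptors with GluA2. Probe set X54656_at read 31.6, 51.8 and 101.2 in controls, 87.8 and 42 at 1 hr and 76.6, 49.7 and 133.5 at 2 hr, with all groups overlapping. Its log2 change was 0.14 (95% interval -1.23 to 1.52) at 1 hr and 0.54 (-0.69 to 1.77) at 2 hr. The other probe set, M36420_s_at, spread the most of the 15, with 39.2, 33.7 and 8 in controls, 6.5 and 52.7 at 1 hr and 58, 5.8 and 16.2 at 2 hr. Each group had 1 array under the floor, and the log2 changes were -0.06 (95% interval -2.28 to 2.15) at 1 hr and -0.16 (-2.14 to 1.82) at 2 hr.

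Gria4 encodes GluA4, a subunit with fast kinetics that is prominent in some interneurons and in cerebellar glia. Its brightest probe set, M36421_s_at, read 18.4, 31.9 and 37 in controls, 15.4 and 14.9 at 1 hr and 15.8, 23.7 and 19.1 at 2 hr. Both 1 hr arrays lay under every control array and under every 2 hr array, and the 2 hr and control groups overlapped only through control replicate 1. Group means on the log2 scale were 4.80 ± 0.53 in controls, 3.92 ± 0.034 at 1 hr and 4.27 ± 0.29 at 2 hr (SD, n = 3, 2 and 3 arrays). The log2 change was -0.88 (SE 0.446, 95% interval -1.88 to 0.12) at 1 hr, with an adjusted limma p of 1. At 2 hr it was -0.53 (SE 0.399, 95% interval -1.43 to 0.36). Averaged over both exposed groups the value was -0.71 (SE 0.359, 95% interval -1.51 to 0.098), with an adjusted limma p of 0.999.

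This Gria4 probe set was the 1 of 15 whose 1 hr and control arrays did not overlap. Over all probe sets 12.7% had no overlap in that comparison, 5.11% in the lower direction, so a count of 1 in 15 lies near the background. At 2 hr 0 of 15 had no overlap, against 5.44% of all probe sets, and for the average of both exposures 0 of 15, against 1.93%. The 2 hr mean of M36421_s_at was 0.35 above the 1 hr mean on the log2 scale (SE 0.446, limma, adjusted p = 1). It was also the 1 of 15 without overlap there, against 13.8% of all probe sets, 5.98% in the higher direction. Its negative sign against control held with each array left out in turn, from -1.18 to -0.68 at 1 hr and from -0.83 to -0.33 at 2 hr. The values lay low on the scale, and with the floor at the 40th percentile, 27.9, all exposed arrays sat at the floor and the value was -0.20 in each comparison with control.

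The other Gria4 probe sets lay at or near the floor. S94371_at read 9.6, 14.6 and 7.6 in controls, 25.5 and 7.6 at 1 hr and 19, 11.9 and 18 at 2 hr, and its log2 change was 0.49 (95% interval -0.57 to 1.56) at 1 hr and 0.56 (-0.39 to 1.51) at 2 hr. Its sign was thus opposite to that of M36421_s_at in both comparisons, but at 1 hr this rested on 1 hr replicate 1, without which the value was -0.30. S94371_g_at read 5.5, 21.6 and 2.4 in controls, 2.8 and 4.9 at 1 hr and 18.1, 6.2 and 2 at 2 hr. It was above the floor on 0 arrays at 1 hr and on 1 array in each other group, and its log2 change was -0.42 (SE 0.455) at 1 hr and -0.09 (SE 0.407) at 2 hr.

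**Figure D2:**
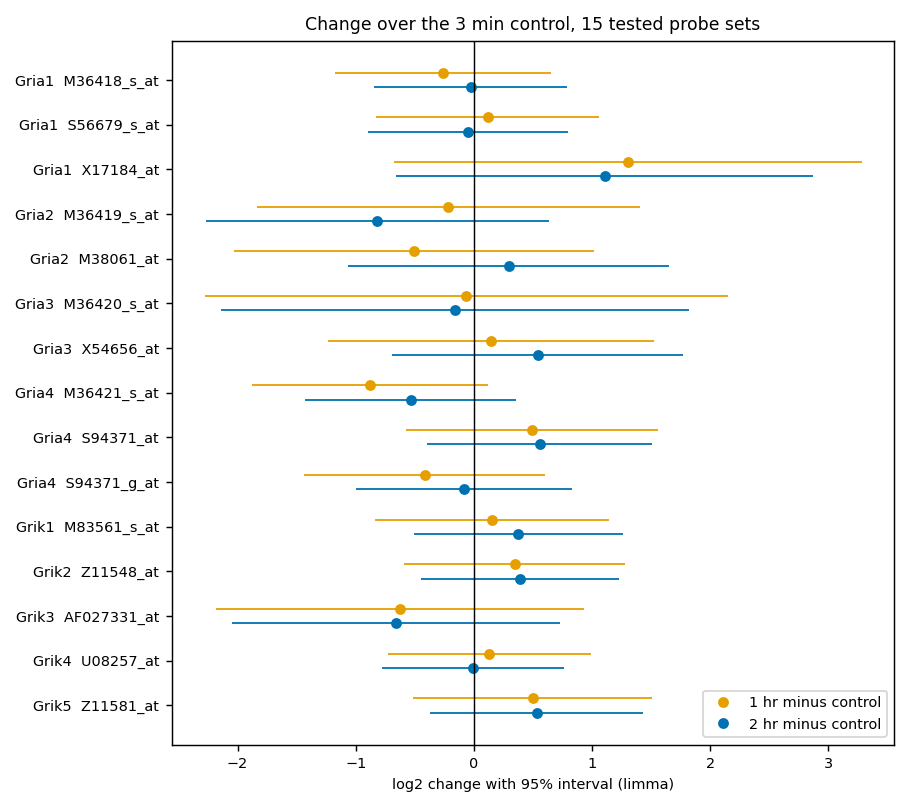
Log2 change of each of the 15 tested AMPA and kainate receptor probe sets against control, at 1 hr and at 2 hr, with the 95% limma interval as a line. Every interval spans 0, and the widest belong to Gria3 M36420_s_at and Gria1 X17184_at.

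At 2 hr each of the 4 AMPA genes had probe sets with changes of opposite sign, and at 1 hr 3 of the 4 did, Gria2 being the exception. Among all genes with 2 or more tested probe sets, 634 of 1375 (46.1%) had both signs at 2 hr and 678 (49.3%) at 1 hr. For genes with 3, as Gria1 and Gria4 have, the shares were 61.1% and 68.1%. For genes with exactly 2, as Gria2 and Gria3 have, they were 37.7% and 40.8%. Across the 8 arrays the 8 pairs of probe sets of the same AMPA gene correlated at -0.71 (Gria1 S56679_s_at with X17184_at) to 0.68 (the Gria2 pair), 4 of them below 0. The Gria3 pair had r = -0.49, and Gria4 M36421_s_at had r = -0.37 with S94371_at and 0.20 with S94371_g_at. Over all genes with exactly 2 tested probe sets, which leaves out genes like Gria1 and Gria4, the median r was 0.463. The quartiles were 0.0699 and 0.726, and 21.7% lay below 0. These correlations rest on the same 8 arrays, share their scaling and are given as a description. Why probe sets of a gene differ was not tested, and the probe sequences were not used here.

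**Figure D3:**
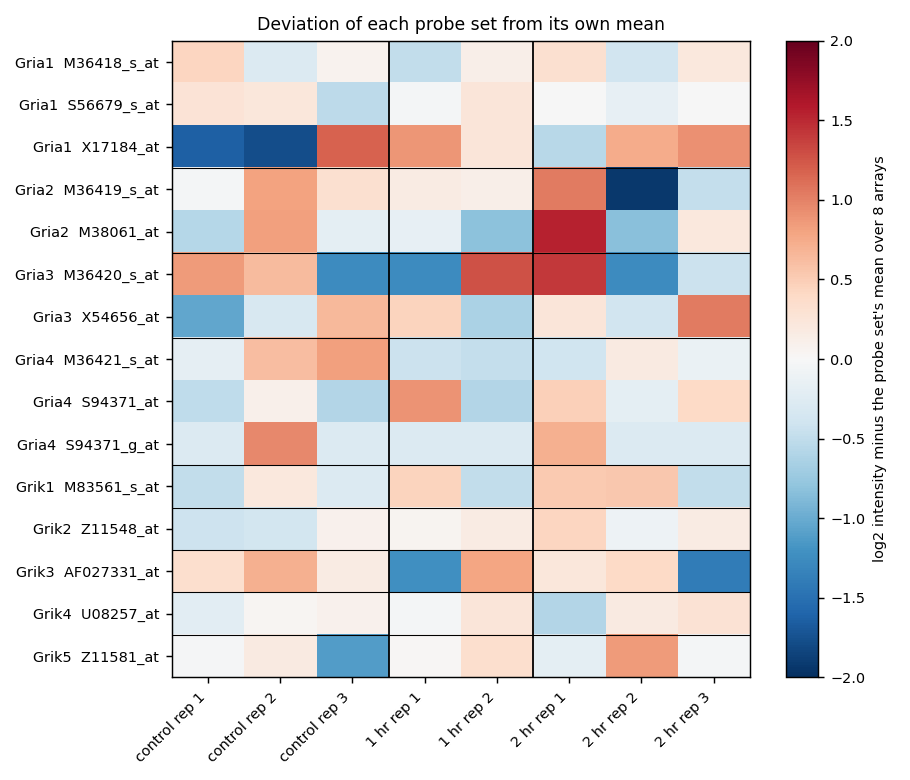
Deviation of each probe set's log2 value from its own mean over the 8 arrays, with 1 row per probe set and 1 column per array in the order control, 1 hr, 2 hr. Probe sets of the same AMPA gene often differ in sign on an array, and the Gria4 M36421_s_at row is above its mean on 2 of the 3 control arrays.

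The kainate subunits GluK1, GluK2 and GluK3, products of Grik1, Grik2 and Grik3, can form channels on their own. Grik1 probe set M83561_s_at read 5.7, 14.8 and 10.6 in controls, 17.3 and 8.2 at 1 hr and 18.4, 18.6 and 3.7 at 2 hr, so each group had an array under the floor. Its log2 change was 0.16 (95% interval -0.83 to 1.15) at 1 hr and 0.38 (-0.51 to 1.26) at 2 hr. No order of the groups can be read from values this close to the floor.

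Grik2 had the smallest spread of the 15, with a within-group SD of 0.244 on the log2 scale. Probe set Z11548_at read 33.9, 35.1 and 47.8 in controls, 46.8 and 50.9 at 1 hr and 60.6, 41.9 and 50.5 at 2 hr. Only control replicate 3 reached into the range of the exposed arrays, and the other 2 control arrays were the lowest of the 8. Group means on the log2 scale were 5.27 ± 0.27 in controls, 5.61 ± 0.086 at 1 hr and 5.66 ± 0.27 at 2 hr (SD, n = 3, 2 and 3 arrays). The differences from control were 0.34 (SE 0.419, 95% interval -0.59 to 1.28) at 1 hr and 0.39 (SE 0.375, 95% interval -0.45 to 1.23) at 2 hr.

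Grik3 was split by single arrays. Probe set AF027331_at read 78.3, 100.7 and 68.9 in controls, 26.3 and 106.6 at 1 hr and 72.5, 81 and 23.5 at 2 hr. The low readings were 1 hr replicate 1 and 2 hr replicate 3, and the remaining exposed arrays lay above the lowest control. Both low arrays were among the 3 with the highest top intensity, and the third of those, control replicate 3, was the lowest control for this probe set. Its log2 change was -0.62 (95% interval -2.18 to 0.93) at 1 hr and -0.66 (-2.05 to 0.73) at 2 hr. Without 1 hr replicate 1 the 1 hr value was 0.39, and without 2 hr replicate 3 the 2 hr value was -0.09. Within the 5 arrays of lower top intensity the values were 0.26 at 1 hr and -0.21 at 2 hr, and within the other 3 they were -1.39 and -1.55.

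GluK4 and GluK5, the products of Grik4 and Grik5, bind kainate with high affinity and need GluK1, GluK2 or GluK3 to form a working channel. Grik4 probe set U08257_at read 68.7, 81.2 and 83.9 in controls, 77.1 and 93.8 at 1 hr and 52.7, 89.8 and 97.3 at 2 hr. The 2 hr group held the lowest and the highest array. Against control its log2 change was 0.13 (95% interval -0.73 to 0.99) at 1 hr and -0.01 (-0.78 to 0.76) at 2 hr, the value nearest to 0 among the 15 at 2 hr. The second Grik4 probe set, X59996mRNA_s_at, is the 1 of 16 that was not tested, with intensities of 5.5 to 6.8 in controls, 8.8 to 9.1 at 1 hr and 6.8 to 12.7 at 2 hr, and only 2 hr replicate 2 above the floor.

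Grik5 probe set Z11581_at read 436.4, 503.1 and 205.1 in controls, 450.4 and 559.7 at 1 hr and 390.2, 804.6 and 432.9 at 2 hr. The highest of the 8 values was 2 hr replicate 2 and the lowest was control replicate 3, and the other 6 arrays lay between 390.2 and 559.7. Group means on the log2 scale were 8.47 ± 0.70 in controls, 8.97 ± 0.22 at 1 hr and 9.01 ± 0.56 at 2 hr (SD, n = 3, 2 and 3 arrays). Against control the differences were 0.50 (SE 0.450) at 1 hr and 0.53 (SE 0.403) at 2 hr, the largest increases estimated among the kainate subunits in both comparisons. Without control replicate 3 these values were 0.10 and 0.13. That array also had the lowest mean of the neuron markers, 8.47 on the log2 scale against 8.91 to 9.80 on the other 7 arrays. For 2 hr replicate 2, the highest for Grik5, that mean was the next lowest at 8.91. Control replicate 3 was likewise lowest for the astrocyte (8.56), oligodendrocyte (9.53), microglia (5.09) and endothelial markers (5.89). It was not lowest for the oligodendrocyte precursor markers or the markers from outside the brain. Its median correlation with the other arrays, 0.883, was the lowest too. The part of these array traits in the Grik5 values was not tested.

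The subunit probe sets differed widely in how far they spread within a group. The within-group SD on the log2 scale had a median of 0.576 over the 15, with 10 above the median of 0.511 over all probe sets. It exceeded 0.9 for Gria1 X17184_at, both Gria2 probe sets, Gria3 M36420_s_at and Grik3, and was under 0.4 for Gria1 M36418_s_at and S56679_s_at, Gria4 M36421_s_at, Grik2 and Grik4 U08257_at. The 95% intervals do not follow from these SDs alone, since limma also draws on the spread of the other probe sets. They leave room for sizeable differences in either direction, and a p above the threshold does not show that the groups were alike. At 2 hr the narrowest, that of Grik4 U08257_at, still spanned -0.78 to 0.76.

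Transcripts of proteins that traffic, anchor, edit or resemble these receptors were measured for 18 of 45 listed genes, each by its brightest probe set. None passed the test in any comparison with limma. Of the 18, 10 read higher and 8 lower at 2 hr than in controls (median log2 change 0.10), and 11 higher and 7 lower at 1 hr (median 0.06). Over all probe sets 52.3% read higher at 2 hr and 55.8% at 1 hr. An unadjusted p under 0.05 with limma was reached by 0 at 2 hr and 1 at 1 hr, against 1.79% and 2.68% of all probe sets.

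Dlg4, which encodes the postsynaptic scaffold PSD-95, read 390.6, 485 and 337.9 in controls, 629.4 and 502.3 at 1 hr and 530.7, 545.8 and 623.5 at 2 hr. All 5 exposed arrays lay above all 3 control arrays, as did those of 0.927% of all probe sets. Among the 18 measured partners no other did so. Dlg4 was named because it had the smallest unadjusted p of them for the average of both exposures, so that share is not that of a gene picked beforehand. Its log2 change was 0.49 (SE 0.282) at 1 hr and 0.50 (SE 0.253) at 2 hr. For the average of both exposures it was 0.49 (SE 0.228, limma, adjusted p = 0.999), and the value stayed above 0 in all 18 alternative settings, of which the changes of filter could not move it.

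Grid1, which encodes the glutamate receptor relative GluD1, read 62.9, 88.3 and 17.5 in controls, 16.7 and 11.9 at 1 hr and 63.7, 90.9 and 65.6 at 2 hr. The 1 hr arrays were the lowest of the 8, with control replicate 3 close above them. Over all probe sets 5.11% had their 1 hr arrays under all controls. Grid1 was the partner with an unadjusted p under 0.05 at 1 hr, where its log2 change was -1.71 (SE 0.667, limma, adjusted p = 1). The 2 hr mean lay 2.36 above the 1 hr mean (SE 0.667, limma, adjusted p = 1). At 2 hr against control the named partners were, besides Dlg4, Camk2a, a subunit of a kinase that phosphorylates GluA1, at 0.77 (SE 0.498), and Nsf, a fusion ATPase that binds GluA2, at 1.26 (SE 1.04). The Nsf value rested on control replicate 3, which read 4.7, under the floor, against 173.2 and 104.8 on the other control arrays, and without it the value was -0.041. At 1 hr Adarb1, whose product edits the Gria2 transcript, stood at 0.51 (SE 0.469). Neither its groups nor those of Camk2a and Nsf were free of overlap with control.

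The other ionotropic family, the NMDA receptor subunits, had 6 of 7 genes measured and 0 passing. At 2 hr 5 read higher and 1 lower than in controls (median log2 change 0.24), and at 1 hr 6 read higher and 0 lower (median 0.23). Over all probe sets 52.3% read higher at 2 hr and 55.8% at 1 hr. Grin2a, which encodes GluN2A, read 73.5, 60.3 and 116.8 in controls, 251.1 and 119.3 at 1 hr and 104.8, 171.6 and 54.2 at 2 hr. Both 1 hr arrays were above all controls, by little in 1 case, with a log2 change of 1.11 (SE 0.541, limma, adjusted p = 1), and the 2 hr change was 0.30 (SE 0.484). Grin3a, which encodes GluN3A, read 43, 32.1 and 57.5 in controls, 61.7 and 33.6 at 1 hr and 60.6, 65.7 and 77.1 at 2 hr. Its 2 hr arrays lay above all controls, with a log2 change of 0.65 (SE 0.408). Counting both directions, 12.7% of all probe sets had no overlap with control at 1 hr and 5.44% at 2 hr. Grin2a at 1 hr and Grin3a at 2 hr were named for the smallest unadjusted p in this list.

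The metabotropic glutamate receptors, which signal through G proteins, had 7 of 8 genes measured and 0 passing. At 2 hr 4 read higher and 3 lower than in controls (median log2 change 0.14), and at 1 hr 2 read higher and 5 lower (median -0.32). The smallest unadjusted p at 2 hr belonged to Grm4, at 0.47 (SE 0.322), and the next to Grm3, at -0.57 (SE 0.411), both with groups that overlapped. With 1 probe set per gene, the AMPA genes stood at 2 higher and 2 lower at 2 hr (median 0.13) and 1 higher and 3 lower at 1 hr (median -0.38). The kainate genes stood at 3 higher and 2 lower at 2 hr (median 0.38) and 4 higher and 1 lower at 1 hr (median 0.16). These lists hold few genes that share arrays, and whether they differ from each other was not tested.

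**Figure D4:**
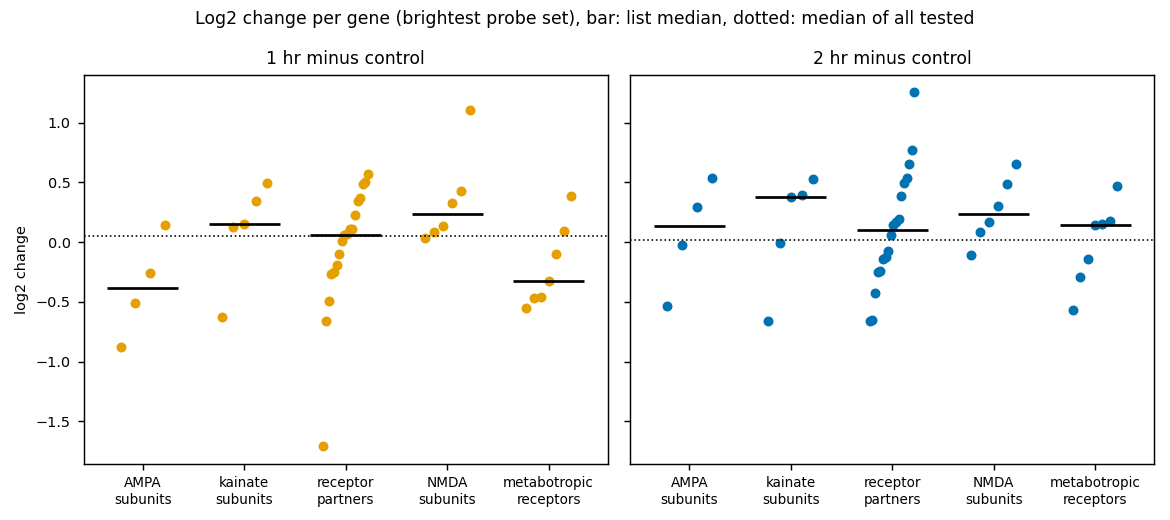
Log2 change against control of every measured gene of the AMPA, kainate, partner, NMDA and metabotropic receptor lists, 1 probe set per gene, at 1 hr and at 2 hr, with the list median as a bar. Genes of each list lie on both sides of 0 apart from the 6 NMDA subunits at 1 hr, and none passed the test.

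Across the 8 arrays the transcripts whose log2 values ran most like a subunit's brightest probe set were Serpind1 (Pearson r = 0.951) and Ppp2r2a (0.947) for Gria1, Acsl4 (0.990) and Hnrnpa2b1 (0.972) for Gria2, Atp2b4 (0.940) and Rpa3 (0.937) for Gria3, and Areg (0.949) and Anxa3 (0.942) for Gria4. For the kainate subunits they were Cyp51 (0.961) and Kng2 (0.954) for Grik1, Lamp2 (0.918) and Bloc1s2 (0.910) for Grik2, Ocln (0.965) and Arf2 (0.957) for Grik3, Yif1a (0.967) and Hmox2-ps1 (0.911) for Grik4, and Plekhm2 (0.993) and Acta2 (0.982) for Grik5. No AMPA or kainate gene was among the closest of another. Each r is among the 2 highest found over all tested genes on the same 8 arrays, so it describes likeness in these samples only. Between probe sets of different subunit genes, the highest r was 0.84, between Gria2 M38061_at and Gria4 S94371_g_at, and the lowest was -0.74, between Gria3 X54656_at and Grik3.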

How the data were processed

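Total RNA of 8 whole-brain samples from rats was measured on 1 array each. The authors deposited 1 linear intensity per probe set and array, 8799 per array, with software and scaling not given in the sources used here. Trimmed means (2%) of each column lay between 150.17 and 150.32, so no further scaling was applied. The 59 control probe sets were left out. Values were floored at 9.1, log2 was taken, and probe sets above the floor on at least 2 of 8 arrays were kept, which left 7770 (4367 genes) and removed 970. Names came from the platform annotation table (7006 probe sets with 1 symbol, 308 with several, 1426 with none), and 6985 symbols were updated through the RefSeq table of assembly GRCr8, used for names only.

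limma 3.58.1 in R 4.3.3 (lmFit, contrasts.fit, eBayes with an intensity trend) was fitted to all 8 arrays with 1 mean per group. Two-sided p-values were adjusted (Benjamini-Hochberg) over the 7770 probe sets at a threshold of 0.05. Contrasts were 1 hr and 2 hr each minus control, the average of the exposed group means minus control (any exposure), and 2 hr minus 1 hr. Only the limma fit was tested on simulated log2 values, with added changes larger than any subunit estimate here. Lists took the brightest probe set per gene, and from each list the 3 genes with the smallest unadjusted p were eligible to be named. The 2 genes of highest Pearson r to each subunit were named as most alike. The members and lists were chosen with earlier results of these data known. Alternatives were quantile normalization, median centring, other floors, a pseudocount of 16, other filters, 3 blocks and leaving out each array. Precision is limited by the small number of arrays. No coordinates or sequences are given.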

Additional observations from a re-analysis of the deposited data

How the results depend on the processing

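No AMPA or kainate receptor probe set passed the limma test in any of 19 alternative settings (smallest adjusted p 0.553). Log2 changes were recomputed in 18 of these settings, which gave 1238 values. Of those, 59 reversed their sign and 1179 did not, where a change of 0 was not counted as reversed. Some settings could not move some of the values, so that count does not measure stability. For Gria1 M36418_s_at at 2 hr against control, the top-intensity block and leaving out either 1 hr array left the value at -0.027. The 1238 values cover the 15 subunit probe sets and the named partner, NMDA and metabotropic receptor genes at 1 hr and at 2 hr against control. They cover 11 probe sets each in the remaining 2 comparisons (any exposure, and 2 hr minus 1 hr), among the subunits only Gria2 M38061_at and Gria4 M36421_s_at. Over all probe sets the count passing stayed at 0 except with no filter on low values, which gave 4 at 1 hr against control and 4 at 2 hr against 1 hr, none of them a subunit. At 2 hr against control, Gria3 M36420_s_at turned to 0.10 with the floor at the 40th percentile and Grik4 U08257_at to 0.00062 with the pseudocount. With the 5S reading as a block, 2 hr values turned to 0.041 for Gria1 M36418_s_at, 0.092 for S56679_s_at, 0.54 for Gria3 M36420_s_at and 0.18 for Gria4 S94371_g_at. At 1 hr against control, Gria3 M36420_s_at turned to 0.20 with the floor at the 40th percentile and to 0.20 with top intensity as a block, which turned Gria3 X54656_at to -0.051. With the 5S block, 1 hr values turned to -0.12 for Gria1 X17184_at, 0.55 for Gria2 M36419_s_at, 0.21 for M38061_at, 1.35 for Gria3 M36420_s_at, -0.33 for X54656_at, 0.12 for Gria4 S94371_g_at, -0.20 for Grik4 and -0.15 for Adarb1. Among the 11 followed for any exposure, the 5S block gave 0.43 for Gria2 M38061_at and the higher floor 0.031 for Dlg3. The cause of these turns was not tested. Whether the replicate numbers pair the samples was not settled. Deviations from the group means correlated at -0.33 to 0.29 for same-numbered arrays, against -0.36 to 0.40 for different numbers. The 2 arrays at 1 hr deviate from their mean by equal and opposite amounts, so these correlations depend on each other and cannot decide it. The replicate block gave 0 passing subunit probe sets and turned Grik1 at 1 hr to -0.036. Leaving out each array in turn gave ranges across 0 at 1 hr for Gria1 M36418_s_at (-0.57 to 0.045) and S56679_s_at (-0.14 to 0.26), Gria2 M36419_s_at (-0.42 to 0.0038), Gria3 M36420_s_at (-1.32 to 1.22) and X54656_at (-0.39 to 0.68), Gria4 S94371_at (-0.30 to 1.23), Grik1 (-0.35 to 0.61), Grik3 (-1.63 to 0.39), Grik4 (-0.010 to 0.27), Grin1 (-0.14 to 0.63) and Grm3 (-1.02 to 0.10). At 2 hr it did so for Gria1 M36418_s_at (-0.20 to 0.19) and S56679_s_at (-0.30 to 0.091), Gria2 M38061_at (-0.32 to 0.86), Gria3 M36420_s_at (-0.91 to 0.42), Gria4 S94371_g_at (-0.30 to 0.080), Grik4 (-0.17 to 0.27), Grin2a (-0.091 to 0.74) and Nsf (-0.041 to 2.07). Among the 11 followed for any exposure it did so for Gria2 M38061_at (-0.42 to 0.30) and Grin1 (-0.22 to 0.56), and for 2 hr against 1 hr for Grm7 (-0.31 to 0.97). Over all 15 subunit probe sets, the count higher at any exposure, 8 as reported, was 6 with quantile normalization or median centring and 10 with the 5S block, so further signs turned. The median subunit change at 2 hr was -0.085 with quantile normalization or median centring and 0.30 (11 higher, 4 lower) with the 5S block. Leaving out the 3 arrays of highest top intensity together, chosen after seeing the data, left 0 subunits passing.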
